A study of Homo sapiens with 8 samples.

Results

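Plasminogen activators turn the circulating proenzyme plasminogen into plasmin, a serine protease that digests fibrin and pericellular matrix. Urokinase does so at the cell surface, held by a receptor on a lipid anchor, while tissue-type activator works mainly on fibrin. Inhibitors of the serpin family trap the activators by offering a loop that the protease cuts and cannot leave. In breast cancer the urokinase system is known as a marker of invasive cells. The rows described here are PLAU (urokinase), PLAUR (its receptor), PLAT (tissue-type activator), SERPINE2 (protease nexin 1, an inhibitor of thrombin and of plasminogen activators) and SERPINB2 (plasminogen activator inhibitor 2). They were taken by symbol from the deposited count table, and all 5 were found among its 25369 genes. Of these, 4 passed the filter on low counts, as did 14016 genes in all, and SERPINB2 did not.

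RNA was sequenced from MDA-MB-231, a mesenchymal line established from a human triple-negative breast cancer, in 8 libraries: 2 each of WT (unmodified cells), SUN2KO (genotype SUN2 KO), Kashlid (a SUN2 without residues 569 to 585) and LBD (a SUN2 without residues 1 to 139). SUN2 spans the inner nuclear membrane and joins lamins inside the nucleus to nesprins outside it. Per the series design, the Kashlid truncation was meant to cut the link to Nesprin-2G and the LBD truncation the link to the lamins. The labels name no treatment, and they do not say in which cells the truncated proteins were made, whether a line is 1 clone, or whether both libraries of a group had their own culture. The p-values below therefore measure library-to-library spread, part or all of which may be technical.

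Total counts lay between 16570099 and 18814795 per library. SUN2, the targeted gene, stood at 83.7 and 81.9 CPM (counts scaled to a common library size) in the WT libraries. SUN2KO had 25.6 and 30.3, Kashlid 37.2 and 35.4, and LBD 32.5 and 34.6 CPM. Against WT the log2 differences of SUN2 were -1.56, -1.19 and -1.3 in SUN2KO, Kashlid and LBD (adjusted p of at most 2.28e-10, edgeR). Kashlid was only 0.37 above SUN2KO (adjusted p = 0.00384, edgeR), and 0.26 above it without SUN2KO replicate 1. LBD was 0.26 above SUN2KO (adjusted p = 0.0501, edgeR, and 0.0356 with library size only). Counts per gene do not show whether the deleted part is present. All 5 markers of the line were present in every library (VIM at least 281 CPM, CD44 310, MSN 523, AXL 95 and CAV1 48). Against WT, VIM differed by -0.43, -0.43 and -0.26 on the log2 scale and CAV1 by -0.56, -0.88 and -0.68 in SUN2KO, Kashlid and LBD (adjusted p of at most 0.000476, edgeR), and CD44 by 0.31 (adjusted p = 2.58e-05) and MSN by 0.16 (adjusted p = 0.0153) in LBD. The luminal markers ESR1, PGR, GATA3 and KRT19 were below 1 CPM, with FOXA1 at 11.1 to 21.5 CPM. The summed level of these 5 luminal markers was 12.3 to 14.8 CPM in WT and 17 to 22.9 CPM over the 3 other groups. Of 8 markers of HEK293-type cells, which were grown in the same study, DPPA4 was at 0 in every library, and PAX2, NEFM and NEFL reached at most 3 counts. LIN28B had 0 counts in both WT libraries and 0.754, 0.496 and 0.676 CPM on average in SUN2KO, Kashlid and LBD (adjusted p of at most 0.00217, edgeR). With 3 counts over the WT group as the floor, LIN28B was 8.66-, 5.68- and 7.76-fold higher. These folds rest on summed counts of 28, 17 and 23 and leave out their counting error. The summed level of these 8 markers was 34.5 to 36.6 CPM in WT and 20.7 to 25 CPM over the 3 other groups, carried by SALL4, TUBB2B and PAX8. The part of these markers in the differences below was not tested.

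The promoters of the 3 members that passed a test are shown so that their elements can be compared. They are RefSeq sequences on GRCh38.p14, a different build from the hg19 of the counts, and each gives the 250 bases before an annotated start, 5′ to 3′ on the gene's strand. Capitals mark matches, on either strand, to the AP-1 element TGANTCA, the GC box GGGCGG, the CCAAT box (letters CCAAT) and the TATA box (letters TATAAA). The annotated starts are not tied to the reads counted here.
PLAUR, chr19:43670170-43670419, minus strand: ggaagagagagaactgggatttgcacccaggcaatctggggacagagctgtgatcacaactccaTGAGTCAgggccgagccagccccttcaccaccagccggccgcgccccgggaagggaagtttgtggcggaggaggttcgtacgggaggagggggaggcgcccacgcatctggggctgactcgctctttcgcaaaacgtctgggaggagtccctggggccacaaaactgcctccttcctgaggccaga
SERPINE2, first of its 2 listed starts, chr2:224031479-224031728, minus strand: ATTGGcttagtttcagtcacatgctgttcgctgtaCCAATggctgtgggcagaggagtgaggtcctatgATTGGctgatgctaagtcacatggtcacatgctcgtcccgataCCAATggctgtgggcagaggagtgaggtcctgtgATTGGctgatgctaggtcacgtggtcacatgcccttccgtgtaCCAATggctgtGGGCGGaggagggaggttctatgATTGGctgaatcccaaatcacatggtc
SERPINE2, the other start, chr2:224038641-224038890, minus strand: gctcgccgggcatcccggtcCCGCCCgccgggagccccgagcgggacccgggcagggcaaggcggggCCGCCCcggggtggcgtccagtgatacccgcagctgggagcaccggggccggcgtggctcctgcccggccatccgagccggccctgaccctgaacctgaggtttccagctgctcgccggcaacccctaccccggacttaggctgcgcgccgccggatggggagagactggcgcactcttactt
PLAU, first of its 2 listed starts, chr10:73910360-73910609, plus strand: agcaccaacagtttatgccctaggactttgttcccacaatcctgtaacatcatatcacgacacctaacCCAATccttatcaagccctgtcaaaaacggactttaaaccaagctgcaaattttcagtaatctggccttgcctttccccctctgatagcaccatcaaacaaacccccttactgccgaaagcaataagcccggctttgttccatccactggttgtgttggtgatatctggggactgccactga
PLAU, the other start, chr10:73910882-73911131, plus strand: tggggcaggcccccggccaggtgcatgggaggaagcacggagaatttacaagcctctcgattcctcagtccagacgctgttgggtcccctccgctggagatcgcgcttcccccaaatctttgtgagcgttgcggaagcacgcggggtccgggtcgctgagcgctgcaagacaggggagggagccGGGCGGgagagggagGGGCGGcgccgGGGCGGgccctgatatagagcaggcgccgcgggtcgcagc

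The PLAUR window held 1 AP-1 match, at bases -186 to -180 from the start, an element found in 6.59% of 34943 RefSeq windows of the same length. PLAU held 1 CCAAT match (-182 to -178) and no GC box before its first listed start, and 3 GC boxes between -66 and -35 before the other, where 42.5% of all windows held at least 1. The share of windows with 3 or more GC boxes was not counted. SERPINE2 held 7 CCAAT matches before its first listed start, on alternating strands, where 32.0% of all windows held any and 0.02% (7 windows) held as many. These matches lie in similar stretches of letters that repeat along the window. The 0.02% therefore does not describe 7 separate elements. The same window had 1 GC box (-50 to -45). The other SERPINE2 start had 2 GC boxes and a GC content of 75.2%. A match is a description of letters and not a binding site.

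SERPINE2 and SERPINB2 are the only inhibitors among the rows described, and SERPINE2 was the more abundant of them. SERPINE2 was lower in each of the 3 lines than in WT. The gene lies on chromosome 2 (224839765 to 224904036, hg19). The WT libraries had 252 and 262 CPM, those of SUN2KO 108 and 92.7, those of Kashlid 124 and 121, and those of LBD 165 and 189. The libraries of WT stood above all others, LBD came next, and Kashlid lay above SUN2KO without overlap.

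Against WT, SERPINE2 fell 2.56-fold in SUN2KO (log2 fold change -1.35 ± 0.07, SE of the fit; adjusted p = 7.48e-12, edgeR's quasi-likelihood test with Benjamini-Hochberg adjustment over all genes). It fell 2.10-fold in Kashlid (-1.07 ± 0.07; adjusted p = 1.1e-10). In LBD it fell 1.45-fold (-0.54 ± 0.07; adjusted p = 1.89e-06). The 3 comparisons share the WT libraries, so they are not independent of one another. The lines also differed from each other: LBD was above SUN2KO 1.76-fold (0.82 ± 0.07; adjusted p = 3.34e-08) and above Kashlid 1.45-fold (0.53 ± 0.07; adjusted p = 0.000271). Kashlid was 1.22-fold above SUN2KO (0.28 ± 0.07; adjusted p = 0.00668), a call that ended without SUN2KO replicate 2 (0.18; adjusted p = 0.174). The order of levels was thus WT, LBD, Kashlid and SUN2KO, with the last step resting on 1 library.

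PLAUR, the urokinase receptor, was higher in the lines with a truncated SUN2 and close to WT in SUN2KO. The gene lies on chromosome 19 (44152723 to 44174498, hg19). The WT libraries had 71.7 and 67.8 CPM, those of SUN2KO 67.2 and 61.1, those of Kashlid 95.2 and 84.8, and those of LBD 102 and 122. Every Kashlid and LBD library was above every WT and SUN2KO library, and LBD was above Kashlid.

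PLAUR rose 1.61-fold in LBD (0.68 ± 0.08; adjusted p = 9.28e-07) and 1.29-fold in Kashlid (0.37 ± 0.08; adjusted p = 0.000918) against WT. In SUN2KO the difference was -0.12 ± 0.08 (adjusted p = 0.275), with a 95% interval from -0.29 to 0.05, so a change of the size seen in Kashlid lies outside it. Against SUN2KO, PLAUR was 1.75-fold higher in LBD (0.80 ± 0.08; adjusted p = 3.85e-07) and 1.40-fold higher in Kashlid (0.49 ± 0.08; adjusted p = 0.00019). Between LBD and Kashlid the difference was 0.32 ± 0.08 (adjusted p = 0.0309). That last call ended without LBD replicate 2 (0.18; adjusted p = 0.361) and without Kashlid replicate 2 (0.24; adjusted p = 0.103), and in a fit of these 2 groups alone (adjusted p = 0.106). WT and SUN2KO are thus neighbours that did not differ beyond the test, and LBD and Kashlid are neighbours whose difference depended on single libraries.

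**Figure D1:**
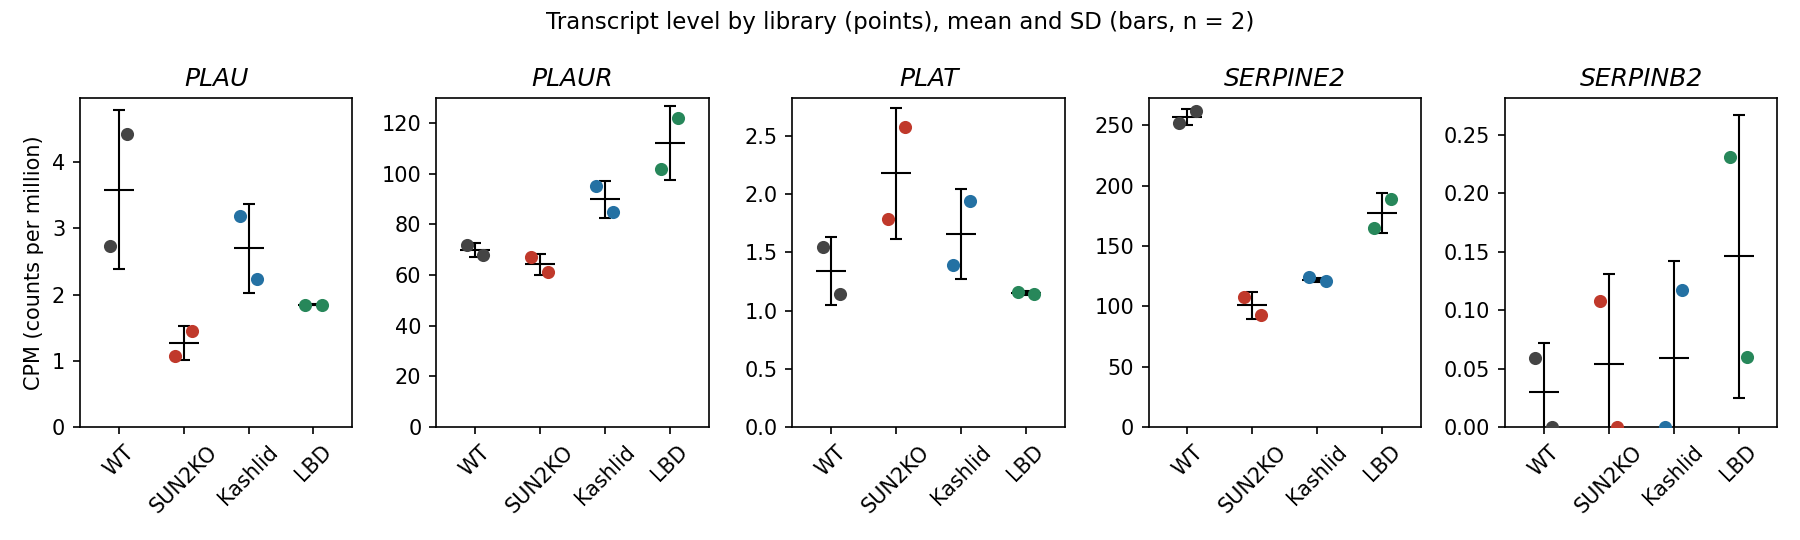
Level in CPM (linear axis from 0, a scale of its own for each gene) in every library of the 4 groups, with the mean and SD of the 2 libraries. SERPINE2 is highest in WT at 252 and 262 CPM, PLAUR is highest in LBD at 102 and 122 CPM, and PLAU, PLAT and SERPINB2 stay below 5 CPM in every library.

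The number of PLAUR reads per SERPINE2 read in the same library does not depend on scaling between libraries. WT had ratios of 0.284 and 0.259, SUN2KO 0.62 and 0.659, Kashlid 0.769 and 0.7, and LBD 0.615 and 0.648. All 6 libraries of the 3 lines lay above both WT libraries. In SUN2KO, SERPINE2 fell and PLAUR did not pass the test, while in Kashlid and LBD SERPINE2 fell and PLAUR rose. The ratio has no test of its own.

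**Figure D2:**
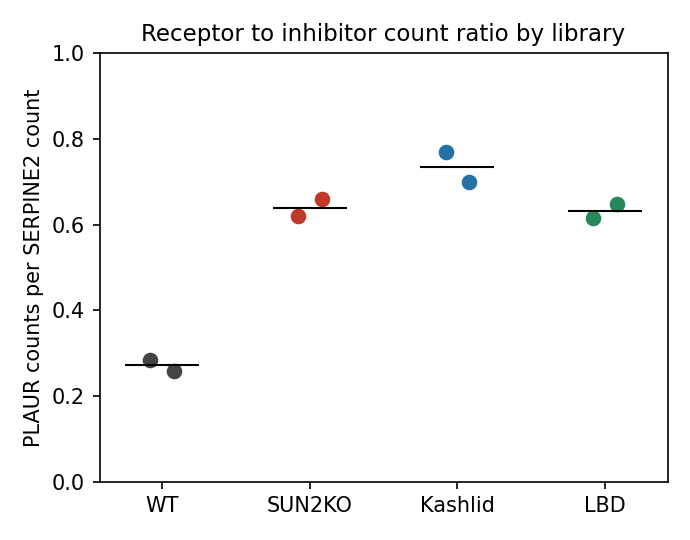
PLAUR counts per SERPINE2 count in each library (points) with the mean of each group (line), linear axis from 0. WT lies at 0.259 and 0.284, and the 6 other libraries lie between 0.615 and 0.769.

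PLAU, urokinase itself, had few reads and was lower in SUN2KO than in WT. The gene lies on chromosome 10 (75670862 to 75677258, hg19). The WT libraries had 46 and 78 counts, those of SUN2KO 20 and 27, those of Kashlid 55 and 38, and those of LBD 32 and 31, which is 2.73 and 4.43, 1.08 and 1.45, 3.18 and 2.23, and 1.85 and 1.85 CPM. SUN2KO and LBD lay below both WT libraries, Kashlid overlapped WT, and the WT libraries differed from each other more than those of any other group.

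PLAU fell 2.82-fold in SUN2KO (-1.50 ± 0.32; adjusted p = 0.00101; 0.0441 without WT replicate 2). In LBD it was 1.94-fold below WT (-0.95 ± 0.31; adjusted p = 0.0179), but that call ended without WT replicate 2 (-0.56; adjusted p = 0.292), without LBD replicate 1 (adjusted p = 0.0769), without LBD replicate 2 (adjusted p = 0.0776) and in DESeq2 (adjusted p = 0.0769). In Kashlid the difference from WT was -0.41 ± 0.29 (adjusted p = 0.272), with a 95% interval from -1.01 to 0.20. Against SUN2KO, Kashlid was higher by 1.09 ± 0.34 (adjusted p = 0.0272), a call that ended in DESeq2 (adjusted p = 0.0951), without either SUN2KO library (adjusted p = 0.214 without replicate 1 and 0.0607 without replicate 2) and without Kashlid replicate 1 (adjusted p = 0.206). LBD lay between the other lines, 0.55 ± 0.36 above SUN2KO (adjusted p = 0.369) and -0.55 ± 0.32 from Kashlid (adjusted p = 0.416). The authors' deposited table gives PLAU log2 fold changes of -1.50, -0.407 and -0.952 in SUN2KO, Kashlid and LBD, with adjusted p = 0.00933, 0.545 and 0.111.

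PLAU lies inside C10orf55, an annotated gene on the opposite strand (chromosome 10, 75669727 to 75682535, hg19). In GENCODE release 29 on GRCh38, exons of C10orf55 cover 916 of 2950 merged exon bases of PLAU (31.1%). C10orf55 itself had 0 to 5 counts per library. No source used here gives the strand setting of the counting. Reads in the overlap may therefore have been set aside or shared, and the level of PLAU is uncertain. Its part in the low count was not tested.

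PLAT, the tissue-type activator, was scarce in every group and passed the test in none of the 6 comparisons. It lies on chromosome 8 (42032236 to 42065194, hg19). The WT libraries had 26 and 20 counts, those of SUN2KO 33 and 48, those of Kashlid 24 and 33, and those of LBD 20 and 19, or 1.55 and 1.14, 1.79 and 2.58, 1.39 and 1.94, and 1.16 and 1.14 CPM. SUN2KO was above both WT and both LBD libraries and overlapped Kashlid. WT overlapped Kashlid and LBD, and LBD lay below both Kashlid libraries.

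The PLAT difference between SUN2KO and WT was 0.70 ± 0.35 (adjusted p = 0.121), with a 95% interval from -0.02 to 1.43, which includes a 2-fold difference. LBD was -0.92 ± 0.36 from SUN2KO (adjusted p = 0.0951). In Kashlid and LBD the differences from WT were 0.31 ± 0.36 (adjusted p = 0.519) and -0.22 ± 0.39 (adjusted p = 0.692). The 18 tested genes within 2.5 Mb of PLAT had median log2 fold changes of -0.29, -0.36 and -0.39 in SUN2KO, Kashlid and LBD, below the median over all genes, which was 0.00, 0.01 and 0.00. The 14 tested genes around SERPINB2 had medians of -0.17, -0.33 and -0.22 in the same order. Around PLAU, PLAUR and SERPINE2 the medians lay between -0.19 and 0.12.

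SERPINB2, an inhibitor of urokinase that stays mostly inside cells, was near the limit of detection. It lies on chromosome 18 (61554939 to 61571124, hg19) and its counts were 1 and 0 for WT, 2 and 0 for SUN2KO, 0 and 2 for Kashlid, and 4 and 1 for LBD. The 5 counts of LBD against 1 of WT are a ratio of 5.17 with a 95% counting interval from 0.579 to 245. No difference was detectable at this depth, and the interval covers counting error only.

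**Figure D3:**
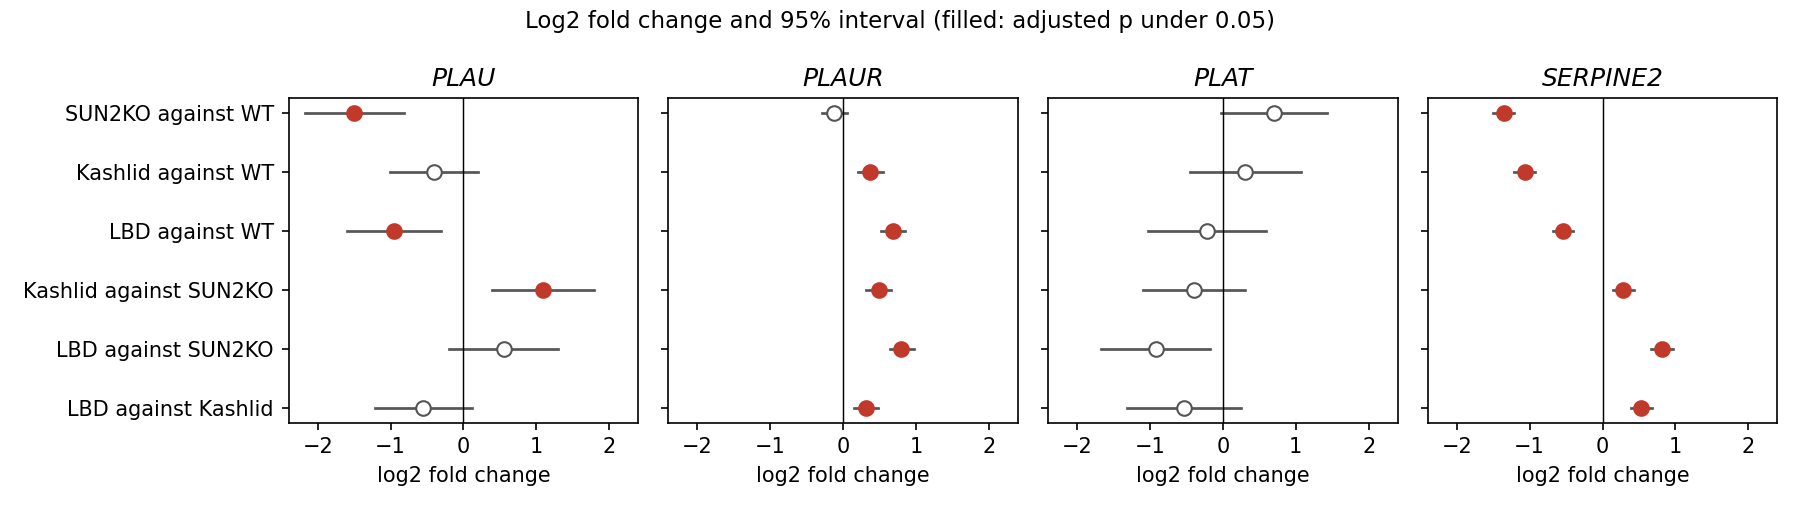
Log2 fold change (points) with its 95% interval (lines) for the 4 tested genes in 6 comparisons, linear axis, filled points at an adjusted p under 0.05 in edgeR. SERPINE2 is filled in all 6 with values from -1.35 to 0.82, PLAUR in 5, PLAU in 3 and PLAT in 0.

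In SUN2KO against WT, 2 of the 4 tested members fell and 0 rose, where 36.7% of all tested genes changed (17.5% higher, 19.1% lower). In Kashlid 1 rose and 1 fell, against 44.5% of all genes (21.7% higher, 22.7% lower). In LBD 1 rose and 2 fell, against 40.0% (19.0% higher, 21.0% lower). Kashlid against SUN2KO had 3 members higher and 0 lower, where 18.0% of genes changed (8.92% higher, 9.13% lower). LBD against SUN2KO had 2 higher and 0 lower, where 13.5% changed (6.69% higher, 6.79% lower). LBD against Kashlid had 2 higher and 0 lower, where 2.91% of genes changed (1.63% higher, 1.28% lower). With 4 genes these counts describe the members and do not set them apart from other genes.

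Levels between genes were compared per length, as CPM per kb of merged GENCODE exons, a length that sums all annotated isoforms. SERPINE2 stood at 28.9 for WT, 11.3 for SUN2KO, 13.8 for Kashlid and 19.9 for LBD. PLAUR stood at 15.6, 14.4, 20.2 and 25.1 in the same order of groups. PLAU lay between 0.429 and 1.21, PLAT between 0.173 and 0.33, and SERPINB2 at or below 0.0529. By these values receptor and SERPINE2 transcripts exceeded those of both activators in every group, with the level of PLAU uncertain through its overlap with C10orf55. Per length, SERPINE2 was above PLAUR in WT and below it in the 3 other groups. That order depends on the lengths used, 8891 bases for SERPINE2 and 4457 for PLAUR. In CPM without division by length, SERPINE2 was above PLAUR in every group. Other lengths were not tried.

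Genes with the most similar pattern were sought by Pearson's r of log2 CPM over the 8 libraries, among genes averaging 5 CPM or more. These r values describe libraries that share their group differences and depth. For PLAUR they were EPGN, an EGF receptor ligand (r = 0.984), LYPD3, a surface protein of the same three-finger family as the receptor (0.979), and IL4R, an interleukin 4 receptor chain (0.974). LYPD3 lies on the same chromosome as PLAUR (chromosome 19, 43964946 to 43969831, hg19), 183 kb away. Its level was 153 ± 3.85 CPM for WT, 137 ± 4.38 for SUN2KO, 174 ± 1.85 for Kashlid and 221 ± 19.7 for LBD (SD, n = 2). EPGN was at 18.3 ± 0.956, 14.8 ± 0.455, 28.1 ± 7 and 36.7 ± 5.89 CPM in the same order. Both had their highest mean in LBD and their lowest in SUN2KO, as PLAUR did. Because they were picked by their r with PLAUR, this shared order adds nothing to that r. The PLAUR difference between SUN2KO and WT did not pass the test.

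For SERPINE2 the most similar genes were EXOSC10, an RNA exosome subunit (r = 0.985), SNX10, a sorting nexin (0.982), and TMCO4 (0.979). SNX10 was at 32.6 ± 3.64 CPM for WT, 19.3 ± 1.51 for SUN2KO, 21.5 ± 0.754 for Kashlid and 26.2 ± 0.821 for LBD (SD, n = 2). For PLAU they were FST, which encodes the activin antagonist follistatin (0.967), DIP2A (0.960) and KLHL2 (0.955), and for PLAT they were UBL5 (0.981), IP6K1 (0.969) and NUDT13 (0.950). The patterns of PLAU and PLAT rest on 19 to 78 counts per library. Among the members themselves r was 0.663 for PLAU with SERPINE2, 0.163 for PLAUR with SERPINE2, 0.058 for PLAU with PLAUR, -0.503 for PLAU with PLAT, -0.626 for PLAUR with PLAT and -0.728 for PLAT with SERPINE2.

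The list of genes for plasminogen binding, for partners of the receptor and for its clearance held genes that moved each way. Of its 22 tested genes, 3 rose and 10 fell in SUN2KO, 3 rose and 13 fell in Kashlid, and 4 rose and 12 fell in LBD against WT. Of all tested genes, 17.5%, 21.7% and 19.0% rose and 19.1%, 22.7% and 21.0% fell in these comparisons. The list medians were -0.19, -0.33 and -0.23, and no test of the list was made. MRC2, a collagen uptake receptor that associates with the urokinase receptor, fell from 363 ± 1.31 CPM in WT to 202 ± 10.1 in SUN2KO, 167 ± 1.68 in Kashlid and 160 ± 7.58 in LBD (adjusted p of at most 1.15e-10, edgeR). ITGB1, the beta 1 integrin chain, fell from 931 ± 20 CPM to 541 ± 28.1, 468 ± 22.2 and 529 ± 6.78 (adjusted p of at most 8.03e-11, edgeR). GPLD1, a phospholipase that can release lipid-anchored proteins, rose by 1.14 ± 0.21 in SUN2KO (adjusted p = 0.000252), 0.68 ± 0.22 in Kashlid (adjusted p = 0.0174) and 0.78 ± 0.22 in LBD (adjusted p = 0.00784). The last 2 calls ended without WT replicate 2 (adjusted p = 0.303 and 0.182). In Kashlid the GPLD1 call also ended in DESeq2 (adjusted p = 0.0512) and without Kashlid replicate 2 (adjusted p = 0.125), and in LBD without LBD replicate 2 (adjusted p = 0.0637).

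Annexin A2 and its partner S100A10 form a cell-surface docking site for plasminogen and tissue-type activator. These and the other genes of this paragraph are given after their values were seen. ANXA2 fell by 0.54 on the log2 scale in Kashlid (adjusted p = 1.07e-09) and by 0.20 in LBD (adjusted p = 0.000423), and was at -0.03 in SUN2KO (adjusted p = 0.546). S100A10 fell in each line, by 0.44 in SUN2KO, 0.43 in Kashlid and 0.30 in LBD (adjusted p of at most 0.000224, edgeR). LRP1, the endocytic receptor that clears complexes of activators with serpins, fell as well, by 0.43, 0.33 and 0.36 (adjusted p of at most 0.000404, edgeR). ITGA5, the alpha chain of a fibronectin-binding integrin, rose by 0.48 in Kashlid (adjusted p = 3.12e-06) and 0.74 in LBD (adjusted p = 1.12e-08), and was at 0.01 in SUN2KO (adjusted p = 0.924). Other integrin chains of the list fell. ITGA3 was at -0.38, -0.43 and -0.17 and ITGB5 at -0.37, -0.51 and -0.21 in SUN2KO, Kashlid and LBD (adjusted p of at most 0.00436, edgeR). ITGAV fell in Kashlid (-0.34) and LBD (-0.29; adjusted p of at most 0.000266, edgeR), and ITGB3 passed the test in no line against WT. M6PR, a receptor for mannose 6-phosphate, rose by 0.28, 0.20 and 0.26 in SUN2KO, Kashlid and LBD (adjusted p of at most 0.00582, edgeR). IGF2R, the other mannose 6-phosphate receptor of the list, fell, at -0.23, -0.22 and -0.24 in the same order (adjusted p of at most 0.000462, edgeR). The Kashlid call of M6PR ended without WT replicate 2 (adjusted p = 0.0712).

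Other serpins moved in both directions. Of 15 tested, 4 rose and 2 fell in SUN2KO, 4 rose and 3 fell in Kashlid, and 7 rose and 1 fell in LBD. The medians were 0.00, 0.12 and 0.33. Over all tested genes 17.5%, 21.7% and 19.0% rose and 19.1%, 22.7% and 21.0% fell, and no test of the list was made. SERPINH1, the collagen chaperone HSP47, fell by 0.19 in SUN2KO (adjusted p = 0.00401; 0.0796 without WT replicate 1), by 0.50 in Kashlid (adjusted p = 5.03e-08) and by 0.24 in LBD (adjusted p = 0.000364). SERPINB5 (maspin), at 89.2 ± 1.90 CPM in WT, went opposite ways in SUN2KO and LBD. It was at 71.5 ± 3.18 CPM in SUN2KO (-0.32 ± 0.06, adjusted p = 0.00029, edgeR) and 113 ± 3.66 in LBD (0.35 ± 0.06, adjusted p = 7.54e-05). In Kashlid SERPINB5 was at 95 ± 0.351 CPM and did not pass the test against WT (0.09 ± 0.06, adjusted p = 0.228, edgeR). SERPINB1, an inhibitor of neutrophil proteases, rose by 0.33 ± 0.07 in LBD (adjusted p = 0.000494). Its smaller values in SUN2KO (0.20; adjusted p = 0.0234) and Kashlid (0.22; adjusted p = 0.0123) ended without WT replicate 2 (adjusted p = 0.135 and 0.0797). In SUN2KO that of SERPINB1 also ended without each other library (adjusted p from 0.0689 to 0.125) and in DESeq2 (adjusted p = 0.0649). SERPINI1 (neuroserpin, an inhibitor of tissue-type activator) was 0.49 ± 0.18 above WT in SUN2KO (adjusted p = 0.0342), a call that ended in DESeq2 (adjusted p = 0.114) and without WT replicate 1 (0.248), SUN2KO replicate 1 (0.077) or SUN2KO replicate 2 (0.181). SERPINB8 was -0.30 ± 0.10 in Kashlid (adjusted p = 0.0151), which ended in DESeq2 (adjusted p = 0.0535), without WT replicate 2 (0.123) and without Kashlid replicate 2 (0.079).

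The list of other serine proteases, coagulation factors and their inhibitors had 19 tested genes. Of these, 5 rose and 7 fell in SUN2KO, 5 rose and 11 fell in Kashlid, and 5 rose and 9 fell in LBD. The medians were -0.23, -0.44 and -0.15. Over all tested genes 17.5%, 21.7% and 19.0% rose and 19.1%, 22.7% and 21.0% fell, and no test of the list was made. SPINT1, a Kunitz inhibitor of hepatocyte growth factor activator and matriptase, rose from 4.86 ± 1.32 CPM in WT to 16.7 ± 1.37 in SUN2KO, 16.6 ± 1.07 in Kashlid and 16.5 ± 3.13 in LBD (adjusted p of at most 8.09e-08, edgeR). TFPI2, a matrix-bound Kunitz inhibitor of plasmin, had group means of 30.4 ± 0.44 CPM in WT, 22.7 ± 1.74 in LBD, 17.9 ± 4.31 in Kashlid and 13.4 ± 0.848 in SUN2KO. Its step from Kashlid to LBD did not pass the test (0.34 ± 0.13; adjusted p = 0.172). Its falls against WT passed the test in SUN2KO (adjusted p = 4.05e-07), Kashlid (adjusted p = 4.53e-05) and LBD (adjusted p = 0.00868, edgeR). The LBD call of TFPI2 ended without WT replicate 1 (adjusted p = 0.0518) and without LBD replicate 1 (adjusted p = 0.0976). FAP, a surface serine protease, fell from 19.2 ± 0.533 CPM to 9.11 in SUN2KO, 6.58 in Kashlid and 8.14 in LBD (adjusted p of at most 3.57e-06, edgeR). PZP, a broad protease inhibitor related to alpha 2 macroglobulin, was at 6.66 and 3.01 CPM in WT, rose to 14.4 and 15.4 in SUN2KO, and fell to 0.463 and 0.704 in Kashlid and 0.521 and 0.359 in LBD (adjusted p of at most 1.44e-05, edgeR). Without WT replicate 1 the PZP log2 fold changes were 2.30, -2.36 and -2.75, in place of 1.63, -3.03 and -3.43.

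Transcription factors known to act at the PLAU promoter moved in both directions in SUN2KO and LBD. Of 19 tested, 4 rose and 4 fell in SUN2KO, 7 rose and 0 fell in Kashlid, and 6 rose and 3 fell in LBD. The medians were 0.07, 0.13 and 0.07. Over all tested genes 17.5%, 21.7% and 19.0% rose and 19.1%, 22.7% and 21.0% fell, and no test of the list was made. EGR1, an immediate early factor, rose from 2.95 ± 0.875 CPM in WT to 23.6 ± 2.56 in SUN2KO, 25.3 ± 9.87 in Kashlid and 10.1 ± 0.0281 in LBD (adjusted p of at most 1.44e-05, edgeR). NFKB2 rose by 0.38, 0.46 and 0.62 in the same order (adjusted p of at most 0.00035, edgeR). RELB was 0.73 above WT in Kashlid (adjusted p = 0.0161) and 0.85 above WT in LBD (adjusted p = 0.00631). These RELB calls ended without WT replicate 2 (adjusted p = 0.109 and 0.0626), without Kashlid replicate 1 (adjusted p = 0.192) and without LBD replicate 2 (adjusted p = 0.208). ETS1 rose (0.52 ± 0.06; adjusted p = 1.48e-06) and ETV5 fell (-0.47 ± 0.10; adjusted p = 0.000887) in SUN2KO.

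**Figure D4:**
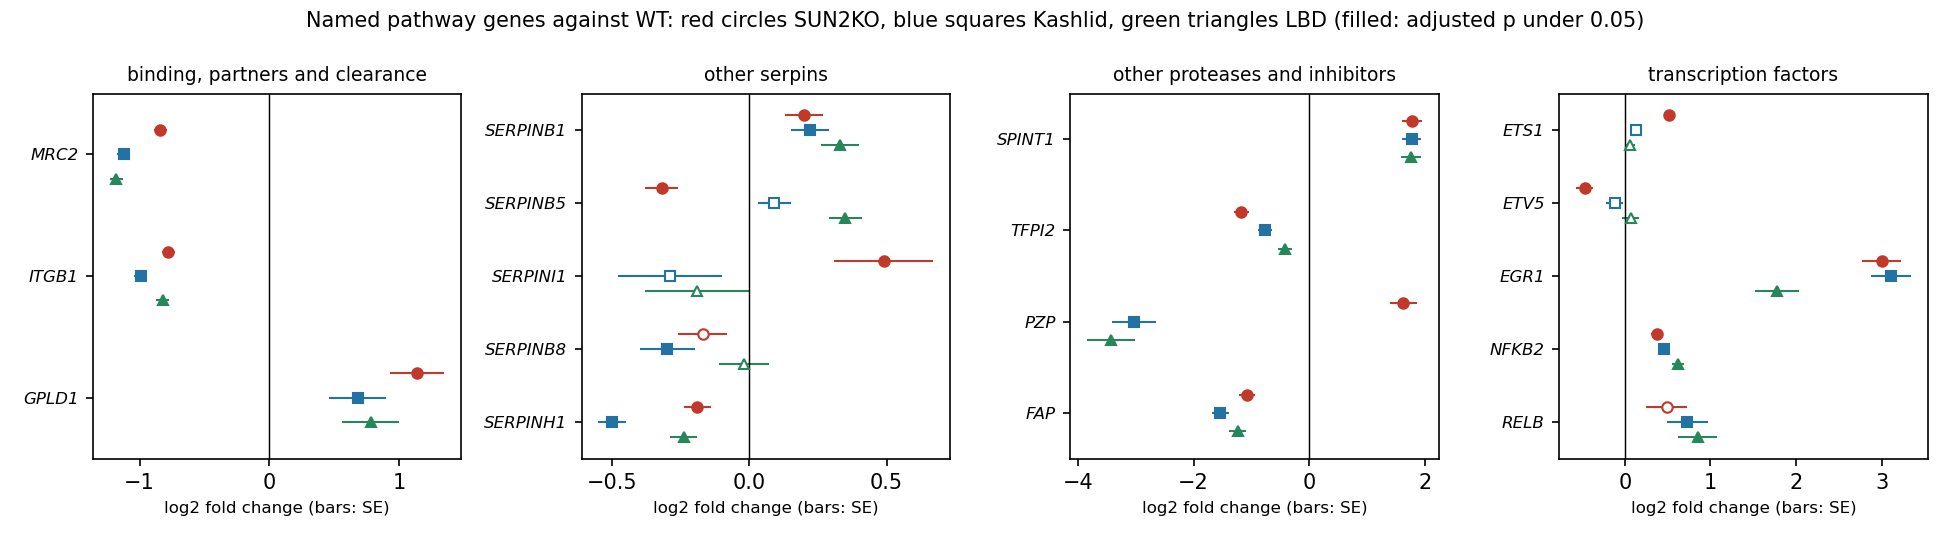
Log2 fold change against WT (points) with its SE (bars) for the pathway genes named by the rule, in 4 panels with linear axes of different width. Filled symbols passed an adjusted p under 0.05 in edgeR. MRC2 and ITGB1 lie to the left of 0 and SPINT1 and EGR1 to the right in all 3 lines, while PZP lies at 1.63 in SUN2KO and at -3.03 and -3.43 in Kashlid and LBD.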

How the data were processed

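Per the labels, total RNA from 10000000 cells per sample was made into NEBNext Ultra libraries and read paired-end on a NovaSeq. Per the submitters' processing notes, the tools were Trim Galore, STAR 2.7.1a, bedtools 2.24.0, HTSeq and DESeq2, with hg19; no source used here gives the annotation version or strand setting. The authors deposited raw counts of reads for each gene. The authors also deposited tables without column names, in which log2 fold changes were identified by their correlation with recomputed values (r = 0.999) and p-values by Benjamini-Hochberg adjustment giving the last column; 12 unnamed columns of per-library values were not used.

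In R 4.3.3, edgeR 4.0.16 was fitted over all 8 libraries with 1 term per group (4 residual degrees of freedom), TMM factors, filterByExpr and the two-sided quasi-likelihood test, after checking the steps on simulated data. Adjusted p under 0.05 over all genes was a call, the SE is the log2 fold change divided by the root of F, and CPM use TMM factors. DESeq2 1.42.0 and the other settings are alternatives. The members and lists were chosen with earlier results of these data known. Named genes were the 5 members, SUN2, up to 3 passing genes per list and comparison with WT with a mean of 5 CPM or more, and the 3 most similar genes per tested member. Exon lengths from GENCODE were added because the files give none that can be used, although the plan was to give no order between genes in that case. Total counts per library were 16570099 to 18814795, and no count was a row without a gene. The libraries of a group differed by more than sampling noise (chi-square per degree of freedom 2.51 to 5.60). Further genes of the pathway were not analysed here.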

Additional observations from a re-analysis of the deposited data

How the results depend on the processing

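Depth limits PLAU, PLAT and SERPINB2, and 2 libraries a group limit every result. Over the 4 tested genes in 6 comparisons, 151 values under another setting and 86 without a library kept their direction and their side of the threshold, 3 and 9 lost a call, and 1 turned its sign: PLAT in LBD against WT, not called at -0.22, ranged from -0.43 to 0.01 without 1 library (0.01 without WT replicate 1). In DESeq2, PLAU kept -0.95 in LBD against WT and 1.09 in Kashlid against SUN2KO but lost both calls. With only the 2 groups compared, PLAUR in LBD against Kashlid (0.32) lost its call, leaving 1 member called there. The stricter filter removed PLAU and PLAT and left 1 member called in SUN2KO against WT. Leaving out 1 library, PLAU in LBD against WT ranged from -1.26 to -0.56, PLAU in Kashlid against SUN2KO from 0.81 to 1.32, SERPINE2 in Kashlid against SUN2KO from 0.18 to 0.4, and PLAUR in LBD against Kashlid from 0.18 to 0.45. Members called then ranged from 1 to 3 in Kashlid against SUN2KO and from 1 to 2 in LBD against Kashlid. Same-numbered libraries deviated together little (r from -0.007 to 0.084). This r runs over all tested genes, many with few counts, and cannot decide whether the numbers pair libraries. A replicate block gave -1.49 for PLAU in SUN2KO against WT (adjusted p = 0.000887, edgeR) and changed no call of a member. Over all genes the block raised the number called in each comparison. The number went from 5137 to 5412 in SUN2KO against WT and from 408 to 581 in LBD against Kashlid. Further values that had no call also turned sign without 1 library: ITGA5 in SUN2KO ranged from -0.07 to 0.09, ETV5 from -0.32 to 0.06 in Kashlid and from -0.03 to 0.18 in LBD, SERPINI1 in LBD from -0.56 to 0.11 and SERPINB8 in LBD from -0.12 to 0.07. The ETV5 value of -0.32, without Kashlid replicate 1, passed the test (adjusted p = 0.00582, edgeR). SERPINB8 in LBD was 0.01 with library size only.

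Counts over all genes moved more. In Kashlid against SUN2KO the 2529 called genes became 1186 without SUN2KO replicate 1 and 1622 without replicate 2. In LBD against SUN2KO the 1890 became 1246 in DESeq2 and as few as 884 without 1 library. In LBD against Kashlid the 408 became 775 with no filter, 129 with the 2 groups alone and 129 to 839 without 1 library. Scaling by library size alone put 61.2% of calls in Kashlid against SUN2KO on the higher side in place of 49.4%, and 61.1% in LBD against SUN2KO in place of 49.6%.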

Other observations

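Further genes of the protease lists, given after their values were seen, had few or no reads in some groups. THBD, which encodes the thrombin receptor thrombomodulin, had 53 and 60 counts in the WT libraries and 0 counts in each of the 6 libraries of the 3 lines. With a floor of 3 counts summed over a group, THBD was 40.6-fold lower in SUN2KO, 37.6-fold lower in Kashlid and 37.2-fold lower in LBD. These folds leave out the counting error of the WT counts. SERPINA1, the inhibitor alpha 1 antitrypsin, had 0 counts in both WT and both SUN2KO libraries, 19 and 17 in Kashlid, and 8 and 1 in LBD. With the same floor SERPINA1 was 12-fold higher in Kashlid than in WT, with the counting error of the Kashlid counts left out. The LBD call of SERPINA1 (adjusted p = 0.0356, edgeR) ended without LBD replicate 1 (adjusted p = 0.383) and without either WT library (adjusted p = 0.135 and 0.142).

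SERPINB3, a cysteine protease inhibitor whose near-identical paralog SERPINB4 may share its reads, was counted 10 and 5 times for WT, 23 and 26 for SUN2KO, 28 and 57 for Kashlid, and 58 and 46 for LBD. It rose by 2.49 on the log2 scale in Kashlid (adjusted p = 0.000165) and 2.79 in LBD (adjusted p = 4.16e-05, edgeR). Without WT replicate 1 the SERPINB3 values were 3.09 and 3.39, and without Kashlid replicate 2 the first was 1.88. In SUN2KO the SERPINB3 difference of 1.58 (adjusted p = 0.0174) ended without WT replicate 2 (adjusted p = 0.171) and without SUN2KO replicate 2 (adjusted p = 0.0836), and it was 2.19 without WT replicate 1.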
